A study of Rattus norvegicus with 6 samples.

Results

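The small leucine-rich proteoglycans Dcn, Bgn, Aspn, Lum, Fmod, Prelp, Omd, Ogn and Podn were described across cultures from 2 inbred rat strains, SHR (spontaneously hypertensive) and WKY (Wistar Kyoto, with normal blood pressure). They were taken as members of one gene family, with earlier results of these data known, and the rule itself uses gene names and no measured value. Of the 9 genes, 8 were found by symbol among the 16770 genes of the estimated count table. Podn was found by its gene identifier, 102552895, under the symbol LOC102552895, which the RefSeq table of the GRCr8 assembly names Podn. All 9 were among the 12614 genes with enough counts to be tested. The cells had grown out of pieces of the proximal aorta of 3-month-old rats, placed in wells on their inner surface, in a commercial endothelial medium that held serum and an endothelial growth supplement. RNA sequencing gave 3 libraries of each strain, and the labels name no other treatment or allele. Replicates 1 and 2 of each strain were in batch 1 and replicate 3 of each in batch 2, and the labels do not say what a batch is. They give 3 per group without stating that each library was its own animal, so the spread behind each p-value may be technical.

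Small leucine-rich proteoglycans are secreted proteins whose curved core, built of leucine-rich repeats, binds collagen. Most carry chondroitin, dermatan or keratan sulfate chains. They sit on collagen fibrils and govern fibril diameter and spacing, and several bind growth factors or cell-surface receptors. In the artery wall they are made mainly by smooth muscle cells and adventitial fibroblasts.

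Libraries held 18462051 to 19947278 estimated counts. A floor of 3 counts was used, which corresponds to 0.15 to 0.19 CPM, the count scaled to a common library size. An observed count of 0 makes an expected count above this floor unlikely but does not exclude it. This floor covers counting error only. The cultures are labelled endothelial, but the 10 endothelial markers found of 12 listed summed to 18.6 to 23.9 CPM in WKY and 19.6 to 37.6 CPM in SHR, of which Egfl7 alone gave 6.38 to 27.2 CPM. Cdh5, the endothelial cadherin, was at 0 in 4 libraries and at 0.10 CPM in the others, and Tie1 was at 0 in 5 libraries. Tek, an angiopoietin receptor, had 0.66, 1.85 and 0.43 CPM in WKY replicates 1, 2 and 3 and 4.72, 9.37 and 8.30 CPM in SHR, without overlap (log2 fold change 3.00, SE 0.63, edgeR adjusted p = 0.182, DESeq2 adjusted p = 0.000282). Pecam1 had 0.11 to 0.43 CPM in WKY and 0.46 to 2.18 CPM in SHR, also without overlap, and was too low to be tested. Other endothelial markers did not follow these. Esam, also too low to be tested, had 0.15, 0.42 and 1.86 CPM in WKY and 0, 0 and 0.26 CPM in SHR. Of the 3 endothelial markers tested, log2 fold changes were positive in 2 and negative in 1 (Egfl7, -0.23). The 12 fibroblast markers, none of them in the family, summed to 5846, 10198 and 16661 CPM in WKY replicates 1, 2 and 3 and to 15265, 13268 and 11948 CPM in SHR. Of these 12, 5 were higher in SHR at an unadjusted p below 0.05, against 6.10% of all genes, and edgeR called 1 higher, against 0.103%. DESeq2 called 5 of the 12 higher, against 2.85% of all genes. Their part in the strain values below was not tested. The 6 pericyte markers summed to 929 to 3108 CPM in WKY and 637 to 857 CPM in SHR, and the 5 macrophage markers found to 3.54 to 28.1 CPM. Log2 fold changes for strain were negative in all 5 pericyte markers tested, with a median of -1.41. Neither edgeR nor DESeq2 called any of them. Since these are bulk cultures, fewer cells of a type and less RNA per cell cannot be told apart in any value below.

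The 9 genes together held 0.365% to 0.510% of counts in batch 1 and 1.24% and 1.36% in the batch 2 libraries of WKY and SHR. Bgn, the gene of biglycan, supplied 54.0% to 63.1% of these counts in batch 1. In batch 2 it supplied 91.9% in WKY and 61.4% in SHR. The batch 2 libraries thus had family shares close to each other and an unlike makeup.

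**Figure D1:**
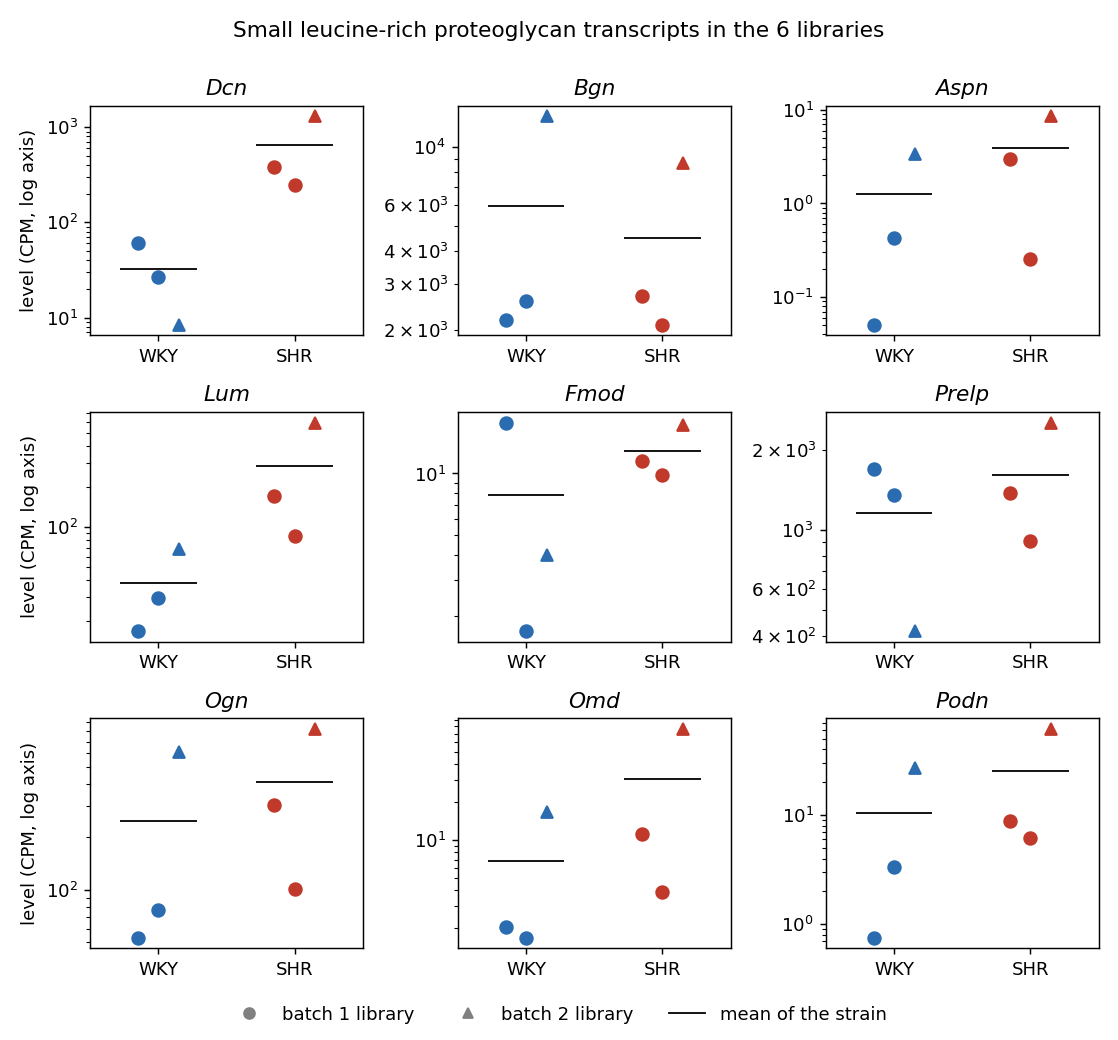
Level of each gene in each library in CPM of the TMM-scaled library (log axis), with circles for batch 1, triangles for batch 2 and a line at the mean of each strain (n = 3). The SHR and WKY points do not overlap for Dcn and Lum, and the triangles lie above all circles for Bgn, Aspn, Ogn, Omd and Podn.

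The question set by the design was whether transcript levels differ between the hypertensive and the normotensive strain. Of the 9 genes, 0 passed the edgeR quasi-likelihood test for SHR against WKY after adjustment over all genes, against a background of 0.254% of all genes called (32, of which 0.103% were higher and 0.151% lower). With the replicate number as a block in place of batch, 6 genes were called, 5 of them among the 32, and again 0 of the 9. An unadjusted p below 0.05 was reached by 4 (Dcn, Lum, Omd and Podn), all higher in SHR, where 13.3% of all genes reached it, 6.10% higher and 7.18% lower. Log2 fold changes (SHR over WKY) were positive for 8 of the 9, with a median of 1.63 against -0.02 over all genes tested. Without SHR replicate 1 that median was 0.96. DESeq2 called the same 4 higher in SHR, beside 2.85% of all genes called higher and 2.66% called lower. Every SHR library lay above every WKY library for 2 of the 9, Dcn and Lum, against 4.50% of all genes tested (9.80% without overlap in either direction). SHR replicate 3 was the highest library for 7 of the 9, against 23.6% of all genes. An exact permutation test of 3 libraries against 3 cannot give a two-sided p below 0.1.

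Decorin (Dcn), which coats collagen I fibrils, binds TGF-beta and dampens the EGF and MET receptors, showed the widest gap between the strains. It stood at 61.4, 26.8 and 8.38 CPM in WKY replicates 1, 2 and 3, and at 385, 245 and 1305 CPM in SHR replicates 1, 2 and 3. The lowest SHR library was above the highest WKY library, and the extremes of both strains came from batch 2, where 135 counts stood against 25137. The fitted log2 fold change was 4.05 (SE 1.14, unadjusted p = 0.0150, edgeR adjusted p = 0.272). DESeq2 called it (log2 fold change 4.09, SE 1.08, adjusted p = 0.00600). The ratio of SHR to WKY was 7.14 in batch 1 and 156 in batch 2, so the size of the fold rests on which batch is read. Within batch 1 alone the edgeR log2 fold change was 2.83 (adjusted p = 0.220), and with 1 library left out it lay between 2.84 and 5.01. Leaving out replicate 3 of either strain leaves a single library in batch 2. For every gene the strain difference of such a fit comes from batch 1 alone, so it is no separate check. On the log2 scale of the table that the authors deposited with equal batch means, Dcn averaged 9.96 ± 0.80 (SD, n = 3) in WKY, and the SHR mean was 12.68 ± 0.77 (SD, n = 3).

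Lumican (Lum), a keratan sulfate proteoglycan that binds collagen and is best known for corneal transparency, had the smallest strain p of the 9 genes. It stood at 16.7, 29.6 and 69.1 CPM in WKY replicates 1, 2 and 3 and at 171, 85.7 and 599 CPM in the SHR libraries. Both strains had their highest level in batch 2 and the strains did not overlap. The SHR to WKY ratio was 5.54 in batch 1 and 8.66 in batch 2. Its log2 fold change was 2.69 (SE 0.38, unadjusted p = 0.000609), and its edgeR adjusted p of 0.0960 missed the threshold of 0.05. DESeq2 gave an adjusted p of 2.46e-10. Across other scalings and filters, keeping batch and every library, edgeR put the adjusted p between 0.0890 and 0.105, and with 1 library left out between 0.0657 and 0.369. With the replicate block it was 0.258. Dcn and Lum are neighbours on chromosome 7, followed by Kera and Epyc. Epyc, the epiphycan gene of growth cartilage, had its highest level in WKY replicate 3, with 0.55, 1.90 and 5.83 CPM in WKY and 0.94, 0.41 and 1.87 CPM in SHR.

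The sequence ahead of the Lum start site is shown because Lum separated the strains in both batches. It is the RefSeq GRCr8 window chr7:34245456-34245705 on the + strand, the 250 bases before the start, and the capitals mark an E-box (CANNTG on either strand), the motif class of basic helix-loop-helix factors.
Lum: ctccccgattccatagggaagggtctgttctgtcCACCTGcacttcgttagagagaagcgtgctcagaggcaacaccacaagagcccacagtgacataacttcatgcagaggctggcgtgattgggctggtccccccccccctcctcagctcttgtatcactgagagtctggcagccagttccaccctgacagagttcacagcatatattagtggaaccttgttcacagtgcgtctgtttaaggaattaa
Of 33469 RefSeq windows of the same length, 65.5% hold a CANNTG match. The Lum window holds 1 such match and none of TATAAA (in 12.9% of all windows), TGANTCA (6.34%) or GTCTAGAC (0.173%), each searched on both strands. The windows searched held none for Dcn, Bgn or Prelp.

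The genes of osteomodulin (Omd), osteoglycin (Ogn) and asporin (Aspn) lie side by side on chromosome 17, followed by Ecm2, a related matrix gene outside the 9, and all of them within the span of Cenpp. Osteomodulin is an acidic, tyrosine-sulfated collagen binder of mineralised tissue. Its transcript had 2.07, 1.69 and 16.8 CPM in WKY replicates 1, 2 and 3 and 11.2, 3.92 and 76.4 CPM in SHR replicates 1, 2 and 3. In each batch SHR was above WKY, by 4.03-fold in batch 1 and 4.56-fold in batch 2. Both strains were higher in batch 2, and WKY replicate 3 lay inside the SHR range. The log2 fold change for strain was 2.07 (SE 0.41, unadjusted p = 0.00306, edgeR adjusted p = 0.173), and DESeq2 called it (adjusted p = 0.000179).

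Osteoglycin, also called mimecan, is abundant in the vessel wall. Ogn had 53.2, 76.4 and 611 CPM in the WKY libraries and 304, 101 and 826 CPM in the SHR libraries. SHR exceeded WKY by 3.13-fold in batch 1 and by 1.35-fold in batch 2, and the strains overlapped. Its log2 fold change was 1.25 (SE 0.51, edgeR adjusted p = 0.392), and it was 0.57 without SHR replicate 1 and 1.65 without replicate 3 of either strain. Asporin, a collagen binder with an aspartate-rich end that also binds TGF-beta, had the fewest counts of the 9. Aspn counts were 1, 8 and 54 in WKY and 57, 5 and 165 in SHR, from replicate 1 to 3, so WKY replicate 1 was under the floor of 3 counts. SHR replicate 2 had fewer counts than WKY replicate 2, and the strains overlapped. The log2 fold change was 2.18 (SE 1.07, edgeR adjusted p = 0.466), and it lay between 0.82 (without SHR replicate 1) and 2.76 with 1 library left out. Ecm2 had 2.37, 4.86 and 9.06 CPM in WKY and 11.4, 2.80 and 41.8 CPM in SHR. All 4 neighbours were highest in SHR replicate 3 and lower in SHR replicate 2 than in SHR replicate 1. The same held for Dcn, Lum, Prelp and Podn on other chromosomes, so it is not particular to these neighbours. Of the 54 estimated counts of the 9 genes, 7 were not whole, all of them in Ogn, Omd and Aspn, as when a read is shared between features.

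The windows ahead of the start sites of these 3 neighbours are shown because the genes lie side by side. They lie at chr17:15274871-15275120 (Omd), chr17:15258996-15259245 (Ogn) and chr17:15310470-15310719 (Aspn) of GRCr8, all on the - strand, 250 bases each from RefSeq, with CANNTG in capitals.
Omd: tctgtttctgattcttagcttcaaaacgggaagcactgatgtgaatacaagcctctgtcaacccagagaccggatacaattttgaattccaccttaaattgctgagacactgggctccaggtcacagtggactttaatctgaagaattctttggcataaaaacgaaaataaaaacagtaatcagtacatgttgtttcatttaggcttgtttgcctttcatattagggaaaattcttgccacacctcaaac
Ogn: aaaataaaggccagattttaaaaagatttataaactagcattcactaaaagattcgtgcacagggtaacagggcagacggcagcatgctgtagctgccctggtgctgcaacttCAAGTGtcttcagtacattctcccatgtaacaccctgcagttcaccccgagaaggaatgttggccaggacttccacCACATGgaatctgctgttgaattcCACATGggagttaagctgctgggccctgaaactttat
Aspn: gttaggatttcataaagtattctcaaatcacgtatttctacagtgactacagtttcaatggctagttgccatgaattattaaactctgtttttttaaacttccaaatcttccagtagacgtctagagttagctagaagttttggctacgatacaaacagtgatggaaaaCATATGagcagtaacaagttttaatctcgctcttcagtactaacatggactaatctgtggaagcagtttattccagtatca
The Ogn window holds 3 CANNTG matches, the Aspn window 1 and the Omd window 0. The 2 TATAAA matches in the Ogn window, 1 on each strand, overlap at a single place (tttataaa). The Omd and Aspn windows hold none. Across the 6 members with a window, 4 hold CANNTG (Lum, Ogn, Aspn and Podn), against 65.5% of all windows, and 1 holds TATAAA.

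Podocan (Podn), a more distant member first described in kidney glomeruli and also made by vascular smooth muscle, was likewise highest in SHR replicate 3. It had 0.76, 3.33 and 27.1 CPM in WKY replicates 1, 2 and 3 and 8.91, 6.16 and 61.4 CPM in SHR replicates 1, 2 and 3. Its order of libraries was the same as that of Ogn, though it lies on chromosome 5. SHR was above WKY within each batch, by 3.69-fold in batch 1 and 2.27-fold in batch 2, while WKY replicate 3 lay inside the SHR range. Its log2 fold change was 1.63 (SE 0.53, edgeR adjusted p = 0.323), and DESeq2 called it with an adjusted p of 0.0443. Counting only comparisons within a batch, every SHR library was above every WKY library for 5 of the 9 genes (Dcn, Lum, Ogn, Omd and Podn), against 13.5% of all genes tested.

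Biglycan (Bgn), the closest relative of decorin and in soluble form a ligand of toll-like receptors, was the member with the least strain difference. It had 2180, 2569 and 13093 CPM in WKY and 2701, 2088 and 8659 CPM in SHR, from replicate 1 to 3. The strains overlapped in batch 1, and in batch 2 WKY was 1.51-fold above SHR. The log2 fold change was -0.19 (SE 0.26, edgeR adjusted p = 0.783), and it was 0.0099 within batch 1.

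Fibromodulin (Fmod), a keratan sulfate proteoglycan that shares its collagen site with lumican, was uneven in WKY, at 17.7, 1.69 and 3.97 CPM, and stood at 11.5, 9.78 and 17.3 CPM in SHR. WKY replicate 1 was the highest library of all and WKY replicate 2 the lowest. Its log2 fold change of 0.76 (SE 0.92, adjusted p = 0.755) became 2.41 without WKY replicate 1 (adjusted p = 0.109). With 1 library left out it lay between 0.13 and 2.41, so its size depends on which library is left out. Prelp, a collagen binder with a basic heparan sulfate-binding end, had 1707, 1359 and 417 CPM in WKY and 1376, 914 and 2541 CPM in SHR. In batch 1 the strains overlapped, with a log2 fold change of -0.42, and in batch 2 SHR was 6.10-fold above WKY. The joint log2 fold change of 0.51 (SE 0.72, adjusted p = 0.794) thus averages unlike batches.

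**Figure D2:**
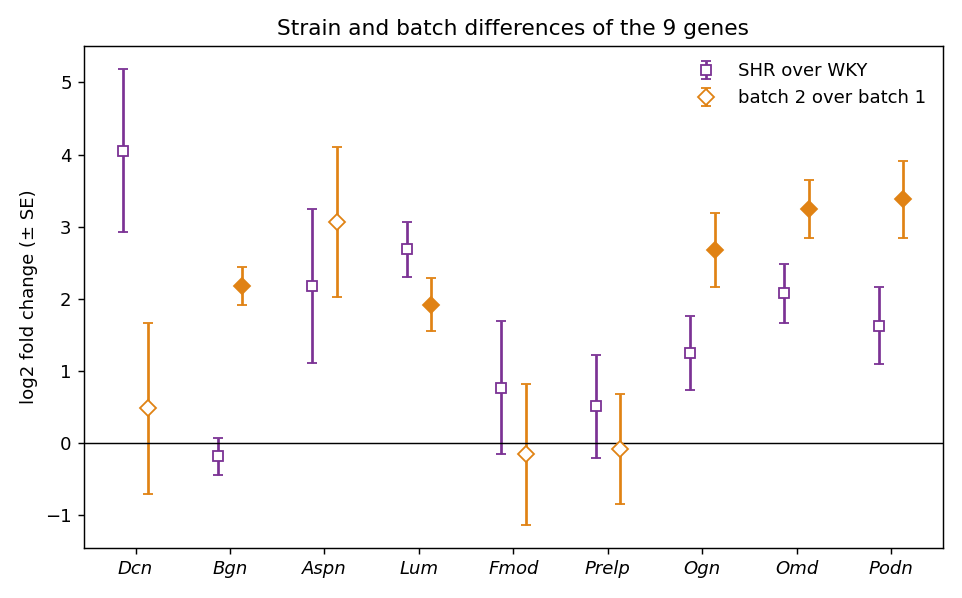
Fitted log2 fold change of each gene with its SE for SHR over WKY (squares) and batch 2 over batch 1 (diamonds), filled where the edgeR adjusted p was below 0.05. No square is filled, and the diamonds of Bgn, Lum, Ogn, Omd and Podn are filled, between 1.91 and 3.38.

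Against batch 1, the batch 2 libraries were higher in most of the family. Among the 9 genes 5 rose in batch 2 by the edgeR quasi-likelihood test, where 43.5% of all genes were called, 21.0% higher and 22.5% lower. They were Podn (log2 fold change 3.38, SE 0.53, adjusted p = 0.00679), Omd (3.25, SE 0.40, adjusted p = 0.00323), Ogn (2.67, SE 0.52, adjusted p = 0.0122), Bgn (2.17, SE 0.26, adjusted p = 0.00284) and Lum (1.91, SE 0.37, adjusted p = 0.0112). Aspn missed the threshold (3.06, SE 1.04, edgeR adjusted p = 0.0634), while DESeq2 called it (0.0109) with the other 5, where DESeq2 called 25.9% of all genes higher. Dcn (0.48), Fmod (-0.16) and Prelp (-0.08) were not called and had adjusted p between 0.764 and 0.937. The median over the 9 was 2.17, against 0.00 over all genes tested. Both batch 2 libraries were above all batch 1 libraries for 5 of the 9 (Bgn, Aspn, Ogn, Omd and Podn), against 27.2% of all genes. Without WKY replicate 3, which leaves SHR replicate 3 as the single library of batch 2, 3 of the 9 were called (Bgn, Lum and Omd). Ogn (adjusted p = 0.0973) and Podn (0.0521) were not. Without SHR replicate 3, WKY replicate 3 is the single library of batch 2. Lum was then not called (0.0891), and Prelp was called lower (log2 fold change -1.88, adjusted p = 0.0188), which compares that library with batch 1. In both fits the lone library is assumed to vary like the others. Fmod was called higher without WKY replicate 1 (0.90, adjusted p = 0.0479) and Aspn without SHR replicate 1 (adjusted p = 0.0276).

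Most smooth muscle markers were higher in batch 2. The 10 markers summed to 783 to 956 CPM in batch 1 and to 8565 CPM in WKY replicate 3 and 2220 CPM in SHR replicate 3. Of the 9 that were tested, edgeR called 7 higher in batch 2, where it called 21.0% of all genes higher. Between strains edgeR called 0 of these 9 markers. Their log2 fold changes (SHR over WKY) were positive in 1 and negative in 8, with a median of -0.50. At an unadjusted p below 0.05, 0 were higher and 2 lower in SHR, beside 6.10% and 7.18% of all genes. DESeq2 called 1 lower, against 2.66%. Within a strain, Des was lower in batch 2 in WKY (21.8, 19.9 and 3.10 CPM, from replicate 1 to 3). Tagln was lower there in SHR (577, 544 and 480 CPM). Acta2, smooth muscle actin, had 93.4 to 183 CPM in batch 1 and 3624 and 730 CPM in the batch 2 libraries of WKY and SHR. The part of these cells or of this gene programme in the batch difference of the proteoglycans was not tested.

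**Figure D3:**
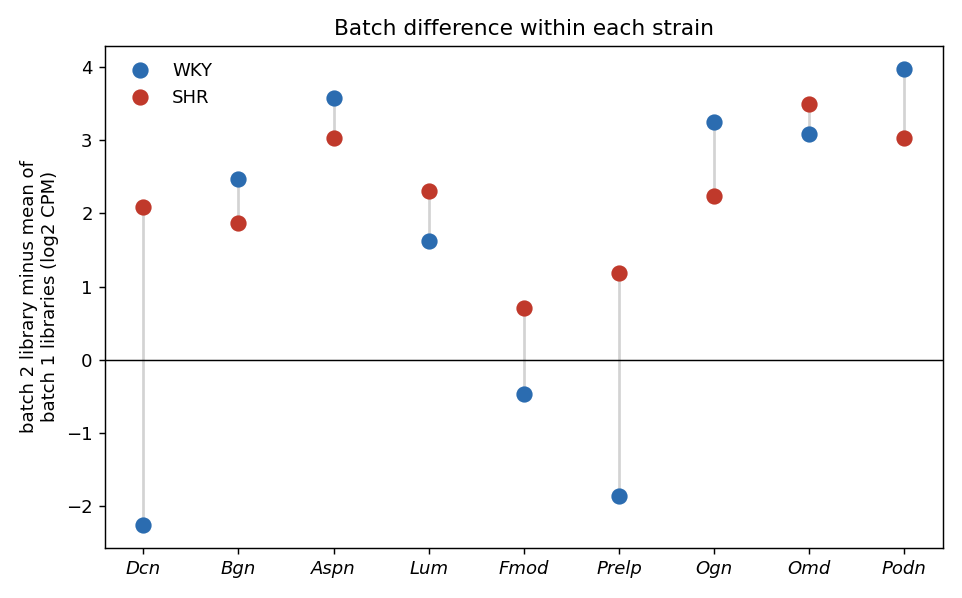
Difference between the batch 2 library and the mean of the 2 batch 1 libraries of the same strain on the log2 CPM scale, for WKY and for SHR. The points lie above 0 in both strains for 6 genes and on opposite sides of 0 for Dcn, Fmod and Prelp.

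For Dcn and Prelp the batch 2 library was the lowest of the 3 in WKY and the highest of the 3 in SHR. In both genes these were also the lowest and the highest of all 6 libraries, as in 3.12% of all genes tested. On the log2 CPM scale the difference between batch 2 and batch 1 for Dcn was -2.26 in WKY and 2.09 in SHR. For Prelp it was -1.87 in WKY and 1.18 in SHR, each from 1 library against the mean of 2. The strain by batch interaction was 4.45 for Dcn (SE 0.88, unadjusted p = 0.00574, edgeR adjusted p = 0.228) and 3.03 for Prelp (SE 0.48, unadjusted p = 0.00148, adjusted p = 0.161), with 2 residual degrees of freedom. No gene at all was called by edgeR in that test (0% of 12614, with 12.7% at an unadjusted p below 0.05). DESeq2 called 3.58% of genes, among them Dcn (adjusted p = 7.53e-07) and Prelp (1.22e-07) and none of the other 7. Prelp was thus unlike Lum, Ogn, Omd, Podn and Bgn, whose batch 2 libraries were above batch 1 in both strains.

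SHR replicate 3 was also the highest library for 9 of the 10 mesothelial markers, against 23.6% of all genes tested. Lrrn4, Krt19 and Cdh1 did not pass the filter for testing, and the highest values of Krt19 and Cdh1 were 0.42 and 2.44 CPM. WKY replicate 3 was the lowest library for Msln, Wt1 and Krt7. Msln had 619, 305 and 61.2 CPM in WKY and 379, 454 and 757 CPM in SHR, and Wt1 had 3.18, 3.27 and 0.06 CPM in WKY and 1.63, 2.95 and 30.6 CPM in SHR. Other markers had another order in WKY, where replicate 3 was the highest of the strain for Upk1b (39.9, 28.2 and 90.3 CPM), Upk3b (1.16, 0.32 and 5.21 CPM) and Krt18 (0.25, 0.05 and 5.21 CPM). SHR replicate 1 was the lowest of all 6 libraries for these 3 genes. Krt7 had 0.40, 2.85 and 0.37 CPM in WKY and 57.1, 127 and 102 CPM in SHR, without overlap. The 10 mesothelial markers summed to 174 to 678 CPM in WKY and 454 to 1473 CPM in SHR, with the lowest sum in WKY replicate 3 and the highest in SHR replicate 3, and Msln gave the largest part of that sum in 5 of the 6 libraries. Krt19 was at 0 in 5 libraries and Cdh1 at 0 in 2. Of the 7 tested, 0 were called between strains by edgeR. At an unadjusted p below 0.05, 2 were higher in SHR, against 6.10% of all genes. DESeq2 called 1 higher, against 2.85%. The part of these markers in the values of Dcn and Prelp was not tested.

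Prelp has as its neighbour on chromosome 13 Optc, the opticin gene, better known from the eye. Optc had 2.02, 0.84 and 0.37 CPM in WKY and 1.63, 0.97 and 2.80 CPM in SHR, from 6 to 54 counts, and so was also lowest in WKY replicate 3 and highest in SHR replicate 3. Its reads amounted to 0.0622% to 0.118% of the Prelp reads in each of the 6 libraries, while Prelp itself ranged 6.10-fold. How reads near the border of these neighbours were counted is not stated, so the low Optc values are uncertain. Fmod follows on the same chromosome and had another order of libraries in WKY.

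**Figure D4:**
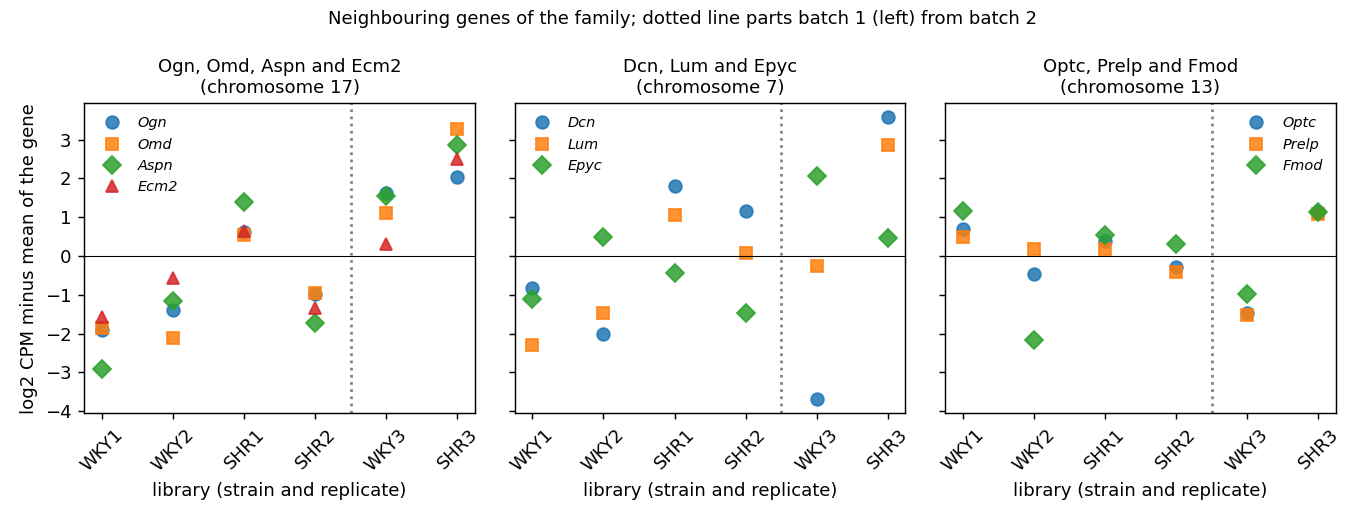
Log2 CPM of neighbouring family genes, each minus its mean over the 6 libraries, with batch 2 to the right of the dotted line. Ogn, Omd, Aspn and Ecm2 are all highest in SHR replicate 3, as are Dcn, Lum, Optc and Prelp. Optc, Prelp and Dcn are lowest in WKY replicate 3, and Epyc is highest there.

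The profile of the family was summarised as the mean over the 9 genes of log2 CPM centred on each gene. Lum lay nearest to it, with a root mean square difference of 0.54 on the log2 scale over the 6 libraries, and Dcn farthest, with 1.87. Among 9979 other genes with a name and a mean level of 5 CPM or more, the 6 nearest were C6 (0.12), Plpp3 (0.24), Pdgfd (0.27), Entpd2 (0.28), Aff2 (0.29) and Coq8a (0.29). C6, a component of the terminal complement complex, had 4.49, 3.86 and 12.6 CPM in WKY and 18.2, 7.13 and 49.9 CPM in SHR. Plpp3, a lipid phosphate phosphatase, had 164, 129 and 301 CPM in WKY and 425, 233 and 1939 CPM in SHR. The likeness is a description over libraries that share strain and batch.

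Relatives outside the 9 were also measured. Of 9 listed relatives 7 were found and 5 tested. Between strains 0 were called by edgeR or DESeq2, and 1 was lower in SHR at an unadjusted p below 0.05, against 7.18% of all genes. Their log2 fold changes were positive in 2 and negative in 3, with a median of -0.35. Leaving out genes averaging under 5 CPM kept only Tsku and Ecm2, at -0.35 and 1.40 before that filter. The median was then 0.53. Tsku, tsukushi, a secreted inhibitor of BMP and Wnt signals, had 109, 92.6 and 200 CPM in WKY and 86.6, 86.8 and 130 CPM in SHR (adjusted p = 0.396). Nyx, the nyctalopin gene of the retina, had 0.74 to 2.97 CPM in WKY and 0.36 to 1.00 CPM in SHR (log2 fold change -1.32, unadjusted p = 0.0140, adjusted p = 0.266).

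Enzymes that build the chains were measured beside the core proteins. Of 22 found genes of chondroitin and dermatan sulfate synthesis, 21 were tested and 0 were called between strains by edgeR. At an unadjusted p below 0.05, 0 were higher and 3 lower in SHR, beside 6.10% and 7.18% of all genes. The median log2 fold change of the 21 was -0.15. Chpf, a chondroitin polymerising factor, had 165 to 326 CPM in WKY and 90.1 to 125 CPM in SHR (adjusted p = 0.281, log2 fold change -0.97, SE 0.30). Chsy1, a chondroitin synthase, had 35.9 to 54.5 and 25.8 to 32.5 CPM (adjusted p = 0.283). B3gat3, which completes the linker that joins chain to core, had 103 to 113 CPM in WKY and 78.1 to 92.3 CPM in SHR (adjusted p = 0.293, log2 fold change -0.36, SE 0.11) and was the single gene of the list that DESeq2 called (0.0436). The strains did not overlap in these 3 genes. Of the 8 tested genes of keratan sulfate synthesis and tyrosine sulfation 0 were called by edgeR. In SHR 3 were lower at an unadjusted p below 0.05, against 7.18% of all genes. They were Tpst2, a tyrosine sulfotransferase (28.2 to 37.1 CPM in WKY and 15.1 to 24.4 CPM in SHR, adjusted p = 0.210), and the sulfotransferases Chst1 (2.32 to 5.28 and 0.47 to 1.82 CPM, adjusted p = 0.292) and Chst2 (32.7 to 119 and 18.3 to 35.4 CPM, adjusted p = 0.355). DESeq2 called Tpst2 (0.0250), 1 of the 8, against 2.66% of all genes called lower.

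Collagens and other fibril partners were counted next. Of 18 tested, 0 were called by edgeR. At an unadjusted p below 0.05, 2 were higher in SHR and 3 lower, beside 6.10% and 7.18% of all genes, and the median log2 fold change was 0.17. Dpt, dermatopontin, which binds decorin, had 0.10, 0.74 and 0.06 CPM in WKY and 25.7, 15.5 and 42.5 CPM in SHR (adjusted p = 0.103, log2 fold change 6.38, SE 0.89, DESeq2 adjusted p = 2.28e-12). WKY replicates 1 and 3 were under the floor of 3 counts, WKY replicate 2 was above it, and the strains were far apart. Col3a1, a collagen III chain, had 1154 to 2212 CPM in WKY and 3008 to 3847 CPM in SHR (adjusted p = 0.334, log2 fold change 0.89, SE 0.31). Fn1, fibronectin, had 4956, 1701 and 10592 CPM in WKY and 1480, 1175 and 1975 CPM in SHR (adjusted p = 0.272, log2 fold change -1.69, SE 0.49). DESeq2 called Dpt and Col3a1 higher and Fn1 lower, 2 and 1 of the 18, against 2.85% and 2.66% of all genes.

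Of 19 tested ligands and receptors of the family 0 were called by edgeR. At an unadjusted p below 0.05, 1 was higher and 5 were lower in SHR, beside 6.10% and 7.18% of all genes. The median log2 fold change was -0.28. Tgfb1, the growth factor that decorin, biglycan and asporin bind, had 114, 92.8 and 243 CPM in WKY and 48.1, 45.9 and 118 CPM in SHR (adjusted p = 0.0690, log2 fold change -1.11, SE 0.14, DESeq2 adjusted p = 1.20e-10). It was below WKY in SHR within each batch, opposite in sign to Dcn. Tgfb2 had 53.6 to 165 and 31.1 to 120 CPM (adjusted p = 0.318), and the receptor gene Tgfbr2 had 227 to 351 and 393 to 931 CPM without overlap (log2 fold change 0.80, adjusted p = 0.322). Among 10 tested proteases that cut the core proteins 0 were called by edgeR. At an unadjusted p below 0.05, 2 were higher and 1 was lower, beside 6.10% and 7.18% of all genes. The median log2 fold change was -0.04. Adamts5, an aggrecanase, had 6.28 to 16.3 CPM in WKY and 17.5 to 36.7 CPM in SHR (adjusted p = 0.160, log2 fold change 1.41, SE 0.27), and Mmp14, a membrane metalloproteinase, had 367 to 515 and 524 to 1002 CPM (log2 fold change 0.67, adjusted p = 0.243). Both were without overlap between strains, 2 of the 10, against 9.80% of all genes tested. DESeq2 called both, and these were its 2 calls among the 10, against 2.85% of all genes called higher. Adamts1 had 660 to 1254 CPM in WKY and 259 to 703 CPM in SHR (adjusted p = 0.349).

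Large and cell-surface proteoglycans were the last group. Of 16 tested 0 were called between strains by edgeR. At an unadjusted p below 0.05, 3 were higher and 1 was lower, beside 6.10% and 7.18% of all genes. The median log2 fold change was -0.03, or -0.40 without WKY replicate 2. Gpc4, a glypican, had 42.2, 47.6 and 342 CPM in WKY and 20.3, 20.3 and 68.7 CPM in SHR (adjusted p = 0.130, log2 fold change -1.54, SE 0.27). Tgfbr3, betaglycan, had 39.2 to 106 CPM in WKY and 162 to 586 CPM in SHR without overlap (log2 fold change 1.78, SE 0.54, adjusted p = 0.294), and Gpc3 had 0.69 to 3.10 and 4.30 to 44.8 CPM (adjusted p = 0.334). DESeq2 called 3 of the 16 higher and 1 lower, against 2.85% and 2.66% of all genes.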

How the data were processed

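RNA sequencing (paired-end, 100 bp reads) was measured in 6 libraries, 3 of each strain. The authors deposited estimated counts per gene, not normalized, of which 8.96% were not whole (tolerance 0.001). The submitters' processing notes name RSEM 1.2.28, Bowtie2 2.4.4, the Rnor_6.0 build and DESeq2 1.42.1 with no roles. Use of strand is not stated there. The log2 values the authors deposited have equal batch means in every gene (largest difference 7.5e-09), so the batch difference is absent from them.

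Estimated counts were rounded. The filterByExpr function of edgeR 4.0.16 (R 4.3.3) left 12614 of 16770 genes. Levels are CPM of the library scaled by TMM factors (0.87 to 1.07). The quasi-likelihood F-test (robust) had strain and batch as terms, 3 residual degrees of freedom and two-sided p-values, with Benjamini-Hochberg adjustment across the genes tested and a threshold of 0.05. SE was computed from the log2 fold change and F. The interaction had 2 residual degrees of freedom. Log2 CPM used a prior count of 2. DESeq2 1.42.0 on the same genes was an alternative, as were other scalings, filters, terms and left-out libraries. The code was tested on simulated data. List genes (184) were matched by symbol (171) or gene identifier (3), and 10 were not matched.

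The genes named are all 9 members, the 3 genes with the smallest p in each other list and the 6 nearest profiles. Neighbouring genes and single marker genes (such as Acta2, Msln and Wt1) were chosen after their values were seen. Members and lists were chosen with earlier results of these data known. Deviations of same-numbered libraries from their strain means correlated across genes at 0.30, 0.40 and 0.66, which includes the shared batch, and a fit with the number as a block is given beside the strain count. The crossed pairs of batch 1 correlated more strongly, at 0.49 (WKY 1 with SHR 2) and 0.48 (WKY 2 with SHR 1). Within batch 1 the difference between replicates 1 and 2 correlated at -0.20 between strains.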

Additional observations from a re-analysis of the deposited data

Results flagged for a closer look

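For Dcn the change from batch 1 to batch 2 had opposite signs in the strains, and every library followed it (interaction 4.45 on the log2 scale, edgeR adjusted p = 0.228, DESeq2 adjusted p = 7.53e-07). Prelp did the same (interaction 3.03, edgeR adjusted p = 0.161, DESeq2 adjusted p = 1.22e-07). The fibril partner gene Dpt was lower in batch 2 in WKY and higher in SHR (interaction 3.66, edgeR adjusted p = 0.502, DESeq2 adjusted p = 0.353). Its values in WKY replicates 1 and 3 are under the floor. Chpf (interaction -1.31, edgeR adjusted p = 0.225, DESeq2 adjusted p = 0.00528) and Chst2 (interaction -1.77, edgeR adjusted p = 0.493, DESeq2 adjusted p = 0.309) were higher in batch 2 in WKY and lower in SHR. Gpc4 was higher in batch 2 in both strains, with an interaction of -1.17 that DESeq2 called (adjusted p = 0.0356) and edgeR did not (0.225). Each batch 2 value comes from 1 library of a strain.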

How the results depend on the processing

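With RLE or upper quartile factors, without a filter, or with a mean of at least 5 CPM, 0 of the 9 genes were called between strains, and their median log2 fold change lay between 1.44 and 1.66. DESeq2 called 360 genes higher and 335 lower between strains, and 4 of the 9. Without a batch term 1 gene was called higher and 1 lower. With the replicate block replacing the batch term, 2 were higher and 4 lower, and it changed the strain call of none of the 9. With the block crossed in batch 1, chosen after seeing the data, there were 0 and 0 (1628 genes at an unadjusted p below 0.05 in edgeR). In batch 1 libraries alone 11 were higher and 11 lower. With 1 library left out the strain test called 0 to 35 genes higher and 0 to 30 lower, with 0 and 0 without SHR replicate 1 (1134 at an unadjusted p below 0.05) or SHR replicate 2 (1513) and the most without WKY replicate 2. The batch test called 1739 to 2346 higher and 2059 to 2461 lower, with 3 to 6 of the 9 higher and 0 to 1 lower (Prelp, without SHR replicate 3). The median of the 9 for strain lay between 0.96 (without SHR replicate 1) and 2.02, and for batch between 2.04 and 2.46. DESeq2 called the interaction in 234 genes higher and 217 lower, 2 of the 9 among the former, and edgeR without a filter in 4.

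In batch 1 alone Bgn was 0.0099 and Prelp -0.42 for strain, and with 1 library left out Bgn lay between -0.34 and 0.0145 and Prelp between -0.42 and 1.10. Strain fits without a replicate 3 rest on batch 1 and so repeat the batch 1 value closely. For batch, leaving out 1 library gave -2.39 to 2.04 for Dcn, -1.29 to 0.90 for Fmod and -1.88 to 1.14 for Prelp. Causes were not tested. Aspn had 1 to 165 counts, and WKY replicate 1 was under the floor.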
